A study of Mus musculus with 7 samples.

Results

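The costimulatory receptors of T cells were followed as 10 genes chosen by name: Cd28, Icos, Cd27, Tnfrsf4, Tnfrsf9, Tnfrsf18, Tnfrsf1b, Tnfrsf8, Tnfrsf14 and Tnfrsf25. They were read out of 55367 genes in 7 bulk RNA-seq libraries, and 9 of the 10 members were among the 12623 genes that entered the test, for which the mean over the libraries had to reach 5 counts. The cells were CD8+ T cells sorted from the spleens of Foxp3 YFP/cre mice, which carry a YFP-Cre fusion at the Foxp3 locus, and both groups share this allele. They were cultured for 48 h with 100 µg/ml of small extracellular vesicles (sEVs) prepared from the spleen microenvironment. This amount is that of the labels, while the methods give the amount as that found in the respective spleen, so that the source and the amount of the vesicles may both differ between the groups and then cannot be told apart. In 3 libraries the vesicles came from leukemic spleens of the Eµ-TCL1 model of chronic lymphocytic leukemia, in which the TCL1 oncogene is driven in B cells (LME-sEV), and in 4 libraries from healthy spleens (HCME-sEV). The labels give neither the age of the animals nor a group without vesicles, and they do not say whether the libraries of a group came from separate mice or cultures, so p-values measure the spread between these libraries, which may be technical. The methods describe the culture medium for CD8+ T cells as holding an antibody against CD28, the product of a member, together with plate-bound anti-CD3 and IL2.

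A T cell that recognizes its antigen needs a second signal, which costimulatory receptors deliver when they bind ligands on other cells. CD28 and ICOS belong to the CD28 family of immunoglobulin-like receptors and signal through PI3 kinase. The other members belong to the TNF receptor superfamily, bind trimeric TNF-like ligands and recruit TRAF adaptors that activate NF-kB. CD28 and CD27 are carried by naive T cells, whereas ICOS, OX40 (Tnfrsf4), 4-1BB (Tnfrsf9) and GITR (Tnfrsf18) are induced or raised after activation, and in CD8+ T cells 4-1BB and CD27 are known for sustaining survival and expansion.

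Levels are given as TMM-normalized counts per 1000000 (CPM). The libraries were made from the 3′ ends of transcripts with unique molecular identifiers, so each count stands for a captured transcript end and levels of different genes were compared without a length correction. In bulk samples fewer cells of a type and less RNA per cell cannot be told apart. The libraries held 3689831 to 5030522 counts. Taken as the detection floor, 3 counts corresponded to 0.596 to 0.813 per 1000000 of the library totals, without TMM scaling. CD8 T-cell markers were present in every library, with a summed level of 1993 to 2076 CPM in HCME-sEV and 2199 to 2444 CPM in LME-sEV, and 2 of these 8 markers, Cd3e and Cd3g, rose. Markers of CD4+ and regulatory T cells summed to 127 to 202 CPM in HCME-sEV and 301 to 330 CPM in LME-sEV. Of the 3 of these 6 that were tested, Ikzf2 and Zbtb7b rose and Lrrc32 fell, while the defining genes Cd4 and Foxp3 reached at most 3 counts and at most 1 count in any library. Ikzf2 made up most of both sums, with 99.7 to 179 CPM in HCME-sEV and 274 to 303 CPM in LME-sEV. Basophil and mast cell markers summed to 12.5 to 41.6 CPM in HCME-sEV and to 42.3 to 63.4 CPM in LME-sEV, with 4 of 7 tested markers higher, and erythroid and platelet markers summed to 72.5 to 179 CPM and 155 to 200 CPM, with 3 of 6 tested markers higher. B cell markers (18.5 to 23.7 and 21.1 to 26.4 CPM, 4 of 10 tested) and myeloid markers (5.07 to 7.86 and 6.01 to 10.5 CPM, 2 of 10 tested) gave no call in either direction, but the untested myeloid marker Itgam had 0 to 1 counts in HCME-sEV and 6 to 8 counts in LME-sEV. NK cell markers (176 to 200 and 160 to 176 CPM) gave no call either, with 1 of 5 tested. That gene, Eomes, which CD8+ T cells also express, made up nearly all of the sum, and Ncr1 reached at most 1 count. The part of these cells in the receptor values was not tested. The library HCME-sEV 1 stood at the edge of its group for 8 of the 10 members, as the lowest in Cd28, Cd27 and Tnfrsf1b and as the highest in Icos, Tnfrsf4, Tnfrsf9, Tnfrsf18 and Tnfrsf8. In a group of 4 any library is often at an edge, and the share over all tested genes was not counted.

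The members lie on 3 chromosomes of the mouse genome (GRCm38, GENCODE gene models). Cd28 (chr1:60716800-60773359) and Icos (chr1:60977927-61000320) are both on the plus strand of chromosome 1, and Ctla4, the inhibitory receptor for the ligands of CD28, is the coding gene in the 204567 bases between them. Chromosome 4 holds 7 members. Among them Tnfrsf4 (chr4:156013843-156016612) and Tnfrsf18 (chr4:156026164-156028895) are separated by 9551 bases with no coding gene between them, and Tnfrsf9 (chr4:150914562-150946102) lies apart from that pair. Cd27 is on the minus strand of chromosome 6 (chr6:125232622-125237010).

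Promoter sequences (RefSeq, build GRCm38.p6, 250 bases before to 50 after a transcript start) were found for 8 of the 10 members. There was no entry for Cd28 and Icos. The promoter of Cd27, a member that rose, is shown beside a promoter of Tnfrsf9, the member with the highest level, and that of Tnfrsf8, the other member with the same 2 kinds of match. Capitals mark matches to the AP-1 motif TGANTCA and to the NF-kB consensus, searched on both strands. An NFAT core (GGAAA), a GC box (GGGCGG) and a TATA box (TATAAA) were also searched and are not marked.
Cd27, chr6:125236978-125237277, minus strand: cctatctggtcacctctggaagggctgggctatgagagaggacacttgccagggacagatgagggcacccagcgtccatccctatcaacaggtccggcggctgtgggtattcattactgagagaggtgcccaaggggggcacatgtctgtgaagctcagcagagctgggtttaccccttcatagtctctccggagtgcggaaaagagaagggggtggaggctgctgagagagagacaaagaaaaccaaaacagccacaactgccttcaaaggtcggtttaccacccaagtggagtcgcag
Tnfrsf9, downstream start, chr4:150927749-150928048, plus strand: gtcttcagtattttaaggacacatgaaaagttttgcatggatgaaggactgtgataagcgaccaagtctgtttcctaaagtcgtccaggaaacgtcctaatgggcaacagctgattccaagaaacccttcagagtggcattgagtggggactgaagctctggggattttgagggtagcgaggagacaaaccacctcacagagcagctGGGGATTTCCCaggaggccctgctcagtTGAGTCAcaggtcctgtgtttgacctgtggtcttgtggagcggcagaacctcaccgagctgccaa
Tnfrsf8, chr4:145315115-145315414, minus strand: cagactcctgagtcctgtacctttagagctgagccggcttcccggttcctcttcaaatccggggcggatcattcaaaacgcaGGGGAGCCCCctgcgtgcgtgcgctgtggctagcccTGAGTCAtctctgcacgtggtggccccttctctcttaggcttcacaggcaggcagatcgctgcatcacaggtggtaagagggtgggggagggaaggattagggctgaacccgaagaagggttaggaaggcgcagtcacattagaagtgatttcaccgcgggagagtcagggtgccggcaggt
In the Tnfrsf9 promoter the NF-kB match GGGGATTTCCC (2 overlapping matches) begins at -43 and the AP-1 match TGAGTCA at -15 from the start site, and in the Tnfrsf8 promoter GGGGAGCCCC begins at -168 and TGAGTCA at -132. The upstream start of Tnfrsf9 (chr4:150919905-150920204) held neither motif. The promoters of Cd27, Tnfrsf4, Tnfrsf18, Tnfrsf1b, Tnfrsf14 and Tnfrsf25 also held neither. The NFAT core was found for Cd27, Tnfrsf4, Tnfrsf18, Tnfrsf14, Tnfrsf25 and Tnfrsf9, and the GC box for Tnfrsf1b, Tnfrsf25, Tnfrsf8 and Tnfrsf9. Of 32851 promoters of the same length, 7.81% held the AP-1 motif and 4.51% the NF-kB consensus. The NFAT core was in 61.3% of them and the GC box in 35.7%. A match describes letters and is not a measured binding site.

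The most abundant members were Tnfrsf9, Cd28, Tnfrsf18, Tnfrsf4, Icos and Cd27, which stood between the 89.9th percentile (Cd27) and the 96.6th percentile (Tnfrsf9) of all tested genes. Tnfrsf1b, which encodes TNF receptor 2, stood at the 69.9th percentile, and Tnfrsf8 (CD30) at the 28.5th. In HCME-sEV cells Tnfrsf9 led in all 4 libraries without overlap with Cd28. The neighbours Cd28, Tnfrsf18, Tnfrsf4 and Icos overlapped in their ranges, and Cd27 followed below Icos without overlap. In LME-sEV cells the order was Tnfrsf9, Cd28, Icos, Cd27, Tnfrsf18 and Tnfrsf4. There the ranges of Tnfrsf9 and Cd28 overlapped, with Tnfrsf9 above Cd28 in 2 of 3 libraries, and Cd28 was above Icos without overlap. Icos, Cd27, Tnfrsf18 and Tnfrsf4 each overlapped with the next.

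**Figure D1:**
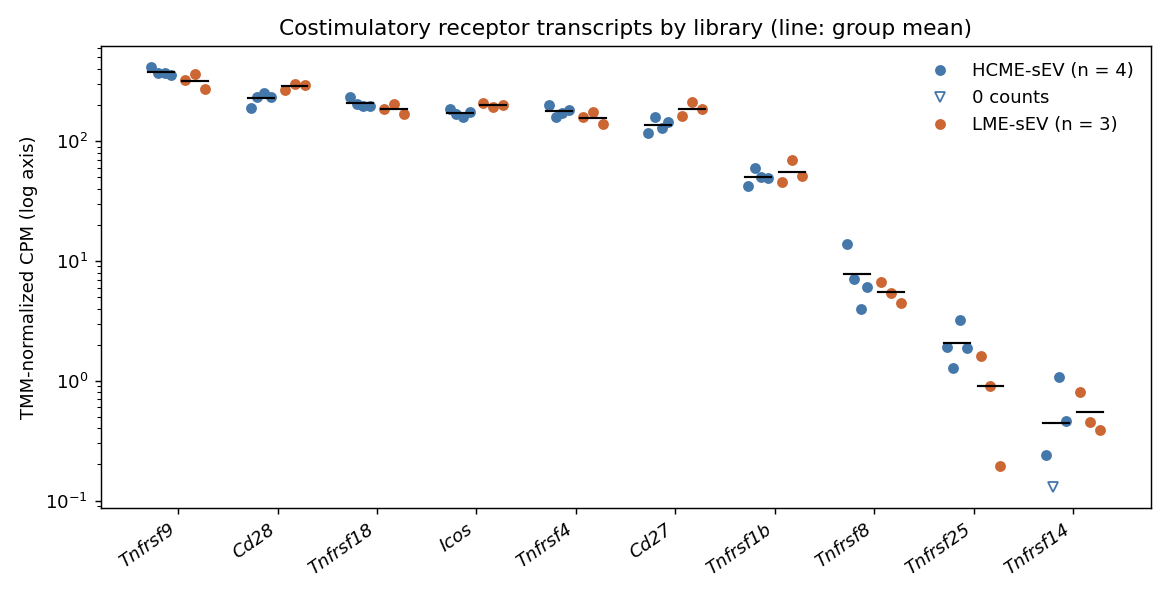
TMM-normalized CPM (log axis) of the 10 members in each library, with a point per library and a line at the group mean (4 HCME-sEV libraries, 3 LME-sEV libraries, open triangle for 0 counts). Cd28, Icos and Cd27 are higher in every LME-sEV library than in every HCME-sEV library, and the last 3 genes lie near or below 10 CPM in nearly all libraries.

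The comparison of LME-sEV with HCME-sEV asked whether vesicles from the leukemic spleen left CD8+ T cells with a different set of costimulatory receptor transcripts. Cd28 and Cd27 were higher after LME-sEVs, by 1.26-fold and 1.36-fold. No member was significantly lower. Across all tested genes 473 were higher (3.75%) and 658 lower (5.21%) at a false discovery rate (FDR) under 0.05 in edgeR (quasi-likelihood test, p-values adjusted by Benjamini and Hochberg), against 2 of the 9 tested members higher and 0 lower. No member was also beyond a log2 fold change of 1, a rule that 162 genes (1.28%) met. In edgeR 5 of the 9 tested members had an unadjusted p under 0.05, beside 22.7% of all tested genes, namely Cd28, Cd27 and Icos among the higher and 2, Tnfrsf9 and Tnfrsf25, among the lower. DESeq2 and limma likewise called 2 members higher and 0 lower. The LME-sEV libraries lay above all HCME-sEV libraries in 3 members, Cd28, Icos and Cd27, beside 9.49% of all tested genes, and below them in 0 members, beside 10.8% of all tested genes.

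Cd28, the receptor for CD80 and CD86 and the main costimulatory receptor of naive T cells, measured 190, 235, 252 and 232 CPM in the 4 HCME-sEV libraries and 268, 299.8 and 293 CPM in the 3 LME-sEV libraries. The groups did not overlap, and HCME-sEV 1 was the lowest of all. The means were 227 ± 26.3 (SD, n = 4) and 287.0 ± 16.6 CPM (SD, n = 3). The log2 fold change was 0.34 (SE 0.088, 95% interval 0.15 to 0.52, edgeR FDR 0.0208). An exact two-sided permutation test of the difference in mean log2 CPM of this gene gave p = 0.0571, where the design allows no p below 0.0286. Without HCME-sEV 1 the log2 fold change was 0.26 and the edgeR FDR 0.0361. Without LME-sEV 2 the log2 fold change was 0.30 and the FDR 0.119, and without LME-sEV 3 they were 0.32 and 0.0974, so that the call was lost while the fold change moved little.

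Icos, the inducible receptor for ICOS ligand, measured 184, 167, 159 and 175 CPM in HCME-sEV and 210, 192 and 199 CPM in LME-sEV. The groups did not overlap, but the lowest LME-sEV library was close to the highest HCME-sEV library. The means were 171 ± 10.9 (SD, n = 4) and 200.4 ± 8.92 CPM (SD, n = 3), a 1.17-fold difference that missed the threshold (log2 fold change 0.22, SE 0.079, 95% interval 0.060 to 0.39, edgeR FDR 0.0826). The exact permutation p was 0.0571. Without HCME-sEV 1 the difference passed, with an edgeR FDR of 0.0432, and it also passed when libraries were scaled by their totals alone (FDR 0.0329).

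Ctla4, which lies between these genes and competes with CD28 for its ligands, rose as well. It measured 105, 129, 143 and 103 CPM in HCME-sEV and 152, 177 and 206 CPM in LME-sEV (log2 fold change 0.58, SE 0.11, edgeR FDR 0.00307). The groups did not overlap. The ratio of Cd28 to Ctla4 transcripts was 1.81, 1.82, 1.763 and 2.26 in HCME-sEV and 1.765, 1.69 and 1.42 in LME-sEV. HCME-sEV 3 and LME-sEV 1 were nearly equal, and this was the only point at which the groups met. The means of this ratio were 1.91 ± 0.23 (SD, n = 4) and 1.63 ± 0.18 (SD, n = 3).

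Cd27, the receptor for CD70 and a TNF receptor superfamily member that naive T cells already carry, had the larger fold change of the members that passed. It measured 117, 158, 130 and 145 CPM in HCME-sEV and 162, 212 and 187 CPM in LME-sEV. The groups did not overlap, although LME-sEV 1 stood just above HCME-sEV 2. The means were 138 ± 17.9 (SD, n = 4) and 187 ± 24.8 CPM (SD, n = 3). The log2 fold change was 0.45 (SE 0.10, 95% interval 0.23 to 0.66, edgeR FDR 0.00945). The exact permutation p was 0.0571. Without HCME-sEV 1 the log2 fold change was 0.37 and the edgeR FDR 0.0152, whereas without LME-sEV 2, the library with the highest Cd27, they were 0.35 and 0.0990.

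**Figure D2:**
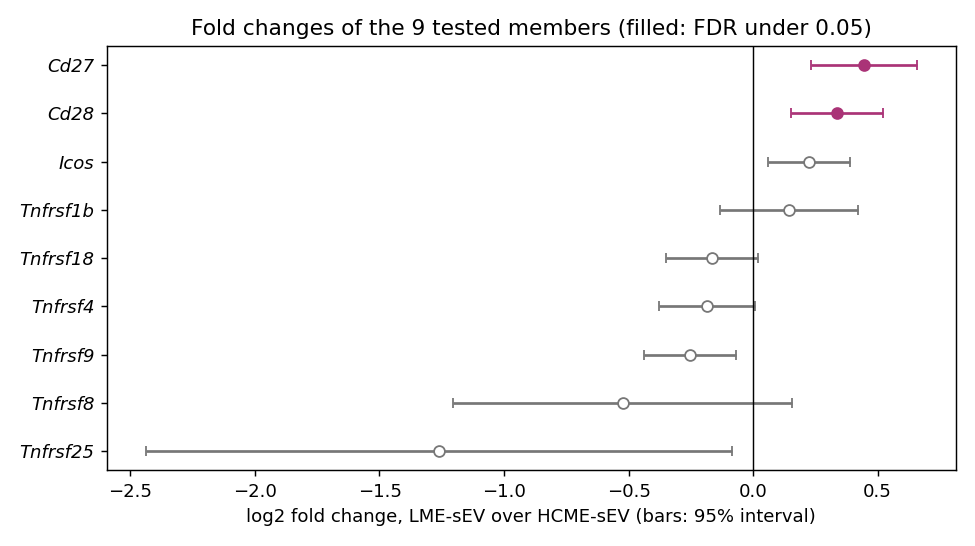
Log2 fold change of LME-sEV over HCME-sEV for the 9 tested members with 95% intervals from the edgeR fit, filled where the FDR was under 0.05. Cd27 at 0.45 and Cd28 at 0.34 are the filled points, and the interval of Tnfrsf25 is by far the widest.

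None of the activation-induced TNF receptors passed the test, and their point estimates were below 0. Tnfrsf9, which encodes 4-1BB, a receptor that activated CD8+ T cells use for survival, measured 417, 374, 369 and 360.1 CPM in HCME-sEV and 322, 360.2 and 274 CPM in LME-sEV. LME-sEV 2 and HCME-sEV 4 were nearly equal, and this was the only point at which the groups met. The means were 379.9 ± 25.1 (SD, n = 4) and 319 ± 43.2 CPM (SD, n = 3). The difference of 0.838-fold missed the threshold (log2 fold change -0.25, SE 0.089, 95% interval -0.44 to -0.070, edgeR FDR 0.0804), and the exact permutation p was 0.0571. Without HCME-sEV 1, the library with the highest Tnfrsf9, the log2 fold change was -0.21 (edgeR FDR 0.142).

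Tnfrsf4, which encodes OX40, measured 199.7, 160.4, 172 and 182 CPM in HCME-sEV and 158, 174 and 139.8 CPM in LME-sEV. The groups overlapped, and the log2 fold change was -0.18 (SE 0.092, 95% interval -0.38 to 0.0075, edgeR FDR 0.242). Its neighbour Tnfrsf18, which encodes GITR, measured 235, 206, 198 and 196 CPM in HCME-sEV and 186, 205 and 168 CPM in LME-sEV. Here too the groups overlapped, with a log2 fold change of -0.16 (SE 0.088, 95% interval -0.35 to 0.020, edgeR FDR 0.281). The ratio of Tnfrsf4 to Tnfrsf18 was 0.856 ± 0.062 (SD, n = 4) in HCME-sEV and 0.843 ± 0.0089 (SD, n = 3) in LME-sEV, and the groups overlapped. That of Tnfrsf9 to Tnfrsf18 was 1.82 ± 0.040 and 1.71 ± 0.065. Here the LME-sEV values were all lower, though the nearest values were 1.77 in HCME-sEV and 1.76 in LME-sEV. The intervals of Tnfrsf4 and Tnfrsf18 leave room for a decrease of up to 0.38 and 0.35 on the log2 scale and for an increase of at most 0.0075 and 0.020.

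The remaining TNF receptors were lower in level and less precisely measured. Tnfrsf1b, a receptor for TNF with costimulatory activity in T cells, measured 41.9, 60.1, 49.9 and 49.6 CPM in HCME-sEV and 45.7, 69.2 and 51.4 CPM in LME-sEV. The groups overlapped, with LME-sEV 2 the highest, and the log2 fold change was 0.14 (SE 0.13, 95% interval -0.13 to 0.42, edgeR FDR 0.570). Tnfrsf8, the CD30 receptor of activated lymphocytes, had 58, 28, 15 and 26 counts in HCME-sEV and 25, 24 and 23 counts in LME-sEV. Its HCME-sEV values reached 13.97 CPM in HCME-sEV 1 and enclosed all LME-sEV values, and the log2 fold change of -0.52 (SE 0.33, 95% interval -1.20 to 0.16, edgeR FDR 0.365) was within this spread. Without HCME-sEV 1 it was -0.08. Tnfrsf25, the death receptor that binds TL1A (Tnfsf15), had 8, 5, 12 and 8 counts in HCME-sEV and 6, 4 and 1 counts in LME-sEV. Its log2 fold change of -1.26 (SE 0.56, edgeR FDR 0.184) had a 95% interval of -2.44 to -0.086, and the groups overlapped. It was -0.72 without LME-sEV 3 and -1.91 without LME-sEV 1. Tnfrsf14, the HVEM receptor for LIGHT (Tnfsf14), had 0 to 4 counts in every library and was not tested. A difference in this gene was not detectable at this depth.

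The summed level of the 10 members was 1364 ± 28.4 CPM (SD, n = 4) in HCME-sEV and 1399 ± 106 CPM (SD, n = 3) in LME-sEV, and the groups overlapped, with LME-sEV 2 the highest at 1519 CPM and LME-sEV 3 the lowest at 1317 CPM. The make-up of this sum was compared member by member. Cd28 and Icos together measured 399 ± 16.5 CPM in HCME-sEV and 487 ± 8.03 CPM in LME-sEV and took 26.7 to 30.7% of the sum in HCME-sEV and 32.4 to 37.4% in LME-sEV. Within the sum, the share of Cd28 was 16.7 ± 2.23% and 20.6 ± 1.45%, and that of Cd27 10.1 ± 1.38% and 13.4 ± 1.25% (SD, n = 4 and n = 3). The share of Tnfrsf9 was 27.8 ± 1.31% in HCME-sEV and 22.7 ± 1.66% in LME-sEV, that of Tnfrsf18 15.3 ± 1.03% and 13.3 ± 0.50%, and that of Tnfrsf4 13.1 ± 1.08% and 11.2 ± 0.53%. In each of these 5 shares the groups did not overlap, whereas they overlapped in the shares of Icos (11.9 to 13.1% in HCME-sEV and 12.6 to 15.4% in LME-sEV), Tnfrsf1b, Tnfrsf8, Tnfrsf14 and Tnfrsf25. In level, however, Tnfrsf9, Tnfrsf18 and Tnfrsf4 overlapped between the groups and did not pass the test. Their shares are taken of a sum that also holds Cd28, Icos and Cd27. Shares add up to a fixed total, so that a rise in some of them lowers the others, and no p is given for them. No share over all tested genes stands beside the count of separated shares.

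**Figure D3:**
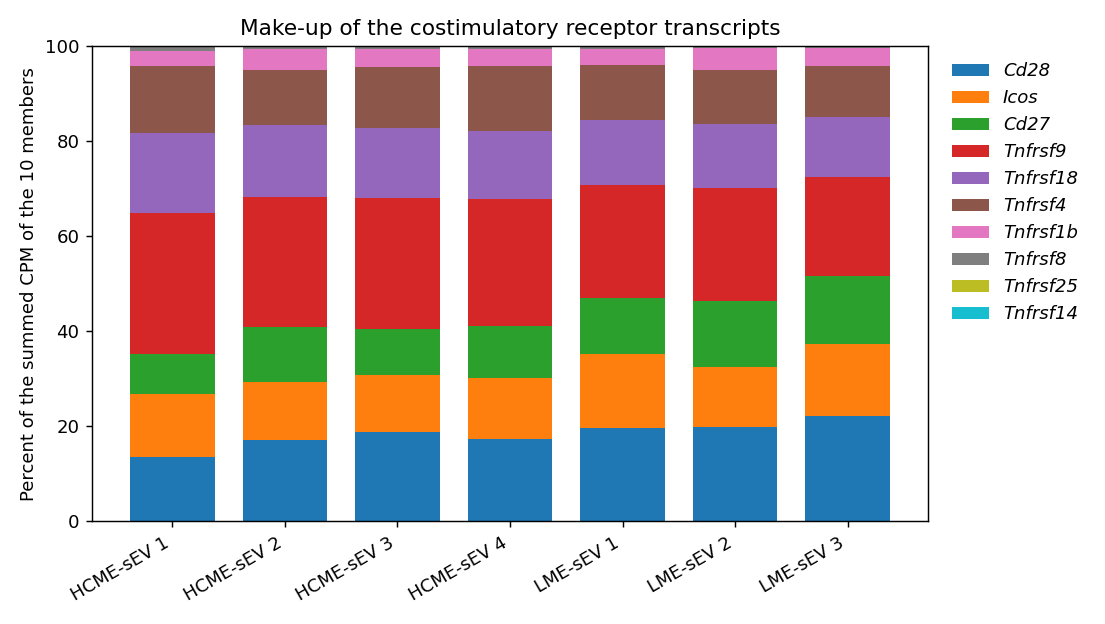
Percent of the summed CPM of the 10 members taken by each member in each library, as stacked bars that add up to 100%. Cd28 and Cd27 each take more of every LME-sEV bar than of any HCME-sEV bar, while the shares of Icos overlap, and Tnfrsf9 takes 20.8 to 23.7% in LME-sEV against 26.7 to 29.7% in HCME-sEV. In level, Tnfrsf9 overlapped between the groups.

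The position of Cd28 and Cd27 against Tnfrsf9 was also expressed as ratios within each library, which do not depend on the scaling of libraries. The ratio of Cd28 to Tnfrsf9 was 0.457, 0.629, 0.683 and 0.644 in HCME-sEV and 0.834, 0.832 and 1.07 in LME-sEV. The ratio of Cd27 to Tnfrsf9 was 0.282, 0.423, 0.352 and 0.403 in HCME-sEV and 0.504, 0.588 and 0.684 in LME-sEV. All LME-sEV libraries were above all HCME-sEV libraries in both ratios, and HCME-sEV 1 had the lowest value in both. The ratio of Cd27 to Cd28 (0.607 ± 0.066, n = 4, and 0.650 ± 0.052, n = 3) and that of Cd28 to Icos (1.34 ± 0.23 and 1.44 ± 0.14) overlapped between the groups. These ratios are descriptions built from the values above. The ratios to Tnfrsf9 set members called higher over a member with a negative log2 fold change. Their separation is therefore no further evidence, and its share over other pairs of genes was not counted.

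The ligands of the members were measured in the same cells. CD8+ T cells make some of these ligands themselves, and 10 of the 12 ligand genes were tested, of which 0 rose and 3 fell, with a median log2 fold change of -0.17 beside 0.0095 over all tested genes. Lta, which encodes lymphotoxin alpha, a ligand of the TNF receptors, measured 77.3, 66.6, 52.8 and 54.2 CPM in HCME-sEV and 29.3, 23.6 and 30.6 CPM in LME-sEV (log2 fold change -1.17, SE 0.14, edgeR FDR 5.67e-05). It had the lowest FDR among the ligands, and it passed in all 16 alternatives. Tnf, the ligand of TNF receptor 2, measured 48.7, 44.3, 42.7 and 39.8 CPM in HCME-sEV and 32.3, 28.1 and 34.1 CPM in LME-sEV (log2 fold change -0.48, SE 0.11, edgeR FDR 0.0126). Tnfsf8, the CD30 ligand, measured 49.4, 61.3, 71.2 and 56.8 CPM in HCME-sEV and 43.3, 47.4 and 40.5 CPM in LME-sEV (log2 fold change -0.45, SE 0.12, edgeR FDR 0.0209). In each of these genes all LME-sEV libraries were below all HCME-sEV libraries, while none of the members they bind passed the test. Tnf missed the threshold without LME-sEV 2 (log2 fold change -0.40, edgeR FDR 0.0946), and Tnfsf8 missed it in 4 of the 7 fits with a library left out (without HCME-sEV 2 or any 1 of the LME-sEV libraries, log2 fold change -0.51 to -0.39, edgeR FDR up to 0.122).

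The other ligands did not pass. Cd80 and Cd86, the ligands of CD28, gave log2 fold changes of 0.14 and -0.02 (edgeR FDR 0.780 and 0.982) at 6.75 to 15.6 and 1.93 to 4.53 CPM. Cd70, the ligand of CD27, was at 2.40 to 5.82 CPM in HCME-sEV and 2.25 to 9.11 CPM in LME-sEV (log2 fold change 0.60, edgeR FDR 0.365). The ligands of CD28 and of CD27 were thus low in every library. Tnfsf4, the OX40 ligand, gave 0.22 (edgeR FDR 0.557), Tnfsf14 gave -0.32 (FDR 0.307) and Tnfsf15 gave -0.0035 (FDR 0.998) on the log2 scale. Icosl, the ligand of ICOS, had 12, 6, 5 and 5 counts in HCME-sEV and 4, 3 and 0 counts in LME-sEV. All LME-sEV libraries were below all HCME-sEV libraries at these low counts, and the log2 fold change of -1.65 (SE 0.67, 95% interval -3.04 to -0.26, edgeR FDR 0.136) missed the threshold. Tnfsf9, the 4-1BB ligand, was between 0.225 and 1.35 CPM and was not tested, and Tnfsf18, the GITR ligand, was listed at 0 in all libraries.

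Genes downstream of the receptors were read against the shares of all tested genes, 3.75% higher and 5.21% lower. Of 26 adaptors and kinases, all tested, 1 rose and 0 fell, and 4 had an unadjusted p under 0.05, with a median log2 fold change of -0.03. The gene that rose was Traf1, an adaptor that binds 4-1BB together with TRAF2, at 158, 170, 181 and 167 CPM in HCME-sEV and 200, 216 and 205 CPM in LME-sEV (log2 fold change 0.29, SE 0.077, edgeR FDR 0.0211). It missed the threshold without HCME-sEV 2, LME-sEV 2 or LME-sEV 3 (FDR up to 0.120). The list of 12 NF-kB target genes also holds subunits and inhibitors of NF-kB. Of its genes 0 rose and 2 fell, Nfkbib (log2 fold change -0.30, edgeR FDR 0.0378), which encodes an inhibitor of NF-kB, and Icam1 (-0.49, FDR 0.0276), an adhesion molecule. Nfkbib passed in 7 of 16 alternatives and Icam1 in 12. The median of this list was 0.0023, and its count of 2 was 1 with upper quartile or library size scaling and 0 in DESeq2, 0 without LME-sEV 2 or LME-sEV 3, 1 without any 1 of HCME-sEV 1, HCME-sEV 2, HCME-sEV 4 and LME-sEV 1, and 4 without HCME-sEV 3. Among the receptors that share a ligand with a member, Ctla4 was the 1 of 4 tested genes that passed, in all 16 alternatives as well. Of the 10 tested among 19 further TNF receptor genes, 0 passed in either direction in edgeR and in DESeq2, with a median of -0.05 and the lowest edgeR FDR, 0.0968, in Tnfrsf21, while 3 of these 10 had an unadjusted p under 0.05, beside 22.7% of all tested genes.

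Other costimulatory and adhesion receptors moved in both directions. Of 8 tested genes 2 rose, Slamf6 (log2 fold change 0.53, SE 0.085, edgeR FDR 6.91e-04), a homotypic receptor of the SLAM family, and Klrk1 (0.50, SE 0.11, FDR 0.00768), which encodes the activating receptor NKG2D. Crtam (-0.35, SE 0.097, FDR 0.0281), a receptor induced on activated CD8+ T cells, fell. Slamf6 passed in all 16 alternatives, Klrk1 missed the threshold without LME-sEV 2 (FDR 0.0672), and Crtam passed in 10 of 16, losing its call with library size scaling and without HCME-sEV 1, HCME-sEV 2 or any 1 of the LME-sEV libraries (edgeR FDR up to 0.119). The median of this list was 0.05. T-cell activation genes gave the largest count of lower genes among the 7 lists, with 0 of 12 higher and 6 lower and a median of -0.30. These were Il2ra, the alpha chain of the IL2 receptor (log2 fold change -0.61, SE 0.076, edgeR FDR 1.06e-04), the early activation marker Cd69 (-0.82, SE 0.11, FDR 1.31e-04), the transferrin receptor gene Tfrc (-0.48, FDR 0.00110), and the transcription factor genes Irf4 (-0.42, FDR 0.00398), Egr3 (-0.35, FDR 0.0276) and Egr1 (-0.38, FDR 0.0460). Il2ra, Cd69, Tfrc and Irf4 passed in all 16 alternatives, Egr3 in 8 and Egr1 in 4. Nr4a1, Nr4a2 and Nr4a3, which respond to the T-cell receptor, gave -0.06, 0.17 and 0.03 and did not pass.

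**Figure D4:**
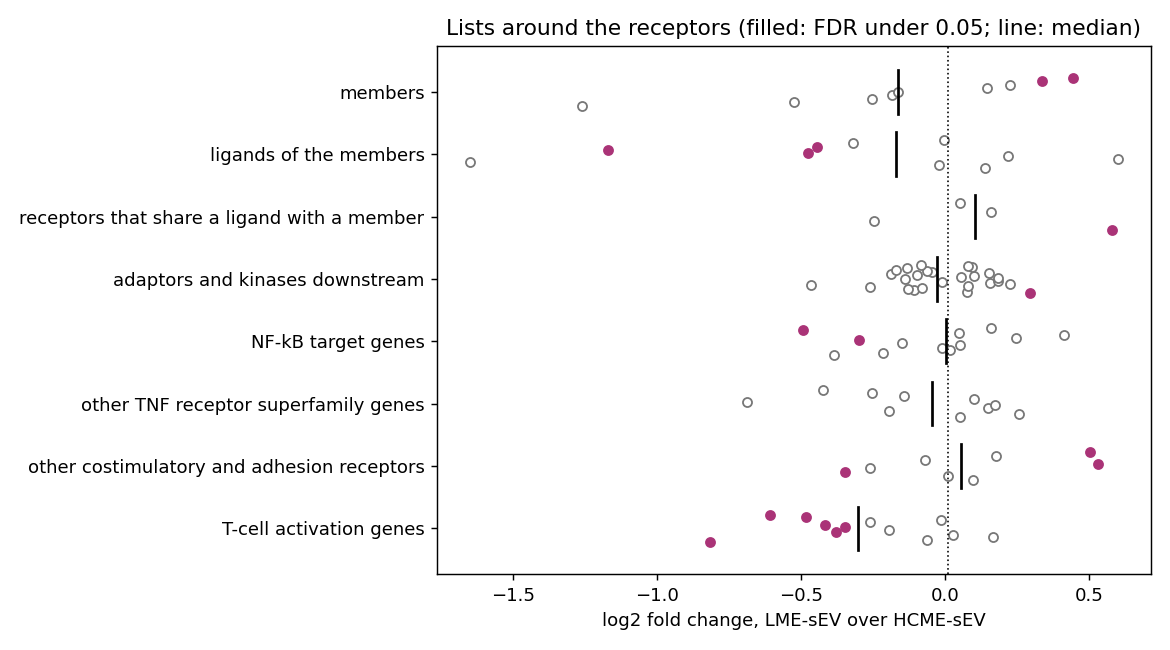
Log2 fold change of LME-sEV over HCME-sEV for the tested members and the genes of 7 related lists, filled where the edgeR FDR was under 0.05, with a line at the median of each list and a dotted line at the median of all tested genes (0.0095). The filled genes of the ligand, NF-kB and activation lists lie to the left, the filled members to the right.

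The genes whose levels over the 7 libraries were most like those of the members that passed were sought among the 9694 tested genes that averaged 20 counts or more, by the root-mean-square difference of the centred log2 CPM. For Cd28 they were Arhgef3 (0.037), Ptpn22 (0.040) and Hlcs (0.048), with log2 fold changes of 0.33, 0.37 and 0.36. Arhgef3 and Ptpn22 passed the test (edgeR FDR 0.0468 and 0.00770), and Hlcs did not (FDR 0.111). Ptpn22, a phosphatase that dampens T-cell receptor signaling, measured 176 CPM on average in HCME-sEV and 226 CPM in LME-sEV, a level close to that of Cd28. For Cd27 they were Mrtfa (0.064), Tmem260 (0.066) and Psrc1 (0.071), all of them less abundant than Cd27. The root-mean-square differences for Cd27 were larger than those for Cd28 at each rank. Likeness was measured over the same libraries as the comparison.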

How the data were processed

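CD8+ T cells of 7 libraries (4 HCME-sEV, 3 LME-sEV; groups and their sizes from the labels, whereas the study's text gives the sizes of the 2 groups the other way round) were profiled by QuantSeq 3′ mRNA sequencing. The deposited values are raw counts per gene, made by the authors with cutadapt 2.10, STAR 2.5.3a, UMI-tools 1.0.0 and featureCounts (Subread 2.0.0) on GRCm38. As 3′ tags, they do not show exons or isoforms. Intervals of a fit cover the spread between libraries.

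Genes whose mean reached 5 counts were fitted with TMM scaling in edgeR 4.0.16 (R 4.3.3), quasi-likelihood test, FDR under 0.05. The script was tested on simulated data, in which 200 of 12623 genes were given a log2 change of 1.5 in either direction. Of these 92.5% were recovered, with 16 false calls. The simulated spread followed the trend over expression level and not the spread of single genes, so the real data may be harder. Smaller changes, such as those of the members called here, were not simulated. TMM factors were 0.965 to 1.00 in HCME-sEV and 1.01 to 1.03 in LME-sEV. Replicate libraries differed by more than sampling noise, most of all in the pairs with HCME-sEV 1. Alternatives were DESeq2 1.42.0, limma 3.58.1 (voom), other filters and scalings, a replicate block and each library left out. No near-identical 3′ ends were found for the members. Genes named were all members, all ligands, at most 6 genes per list past the threshold, and 3 genes nearest to each member that passed. Further genes named below the threshold (Tnfrsf21, Nr4a1, Nr4a2 and Nr4a3) were chosen after their values were seen. The members and lists were chosen with earlier results of these data known.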

Additional observations from a re-analysis of the deposited data

Results flagged for a closer look

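Dixon's ratio was computed in the HCME-sEV group for 42 values, and in 2 of them a single library lay apart from the other 3, where chance gives about 1 in 20. The ratio of Cd28 to Ctla4 was 2.26 in HCME-sEV 4 against at most 1.82 in the others, with a gap of 0.882 of the range. Tnfsf4, the OX40 ligand gene, was at 12.3 CPM in HCME-sEV 3 against at most 8.62 CPM in the others, with a gap of 0.846 of the range. The LME-sEV group of 3 libraries was too small for this check.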

How the results depend on the processing

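Over 16 alternatives Cd28 kept its direction in 16 and its call in 14, and Cd27 kept its direction in 16 and its call in 15. Leaving out libraries had the widest effect. With each library left out in turn, 0 to 3 members passed, all of them higher, with 0 without LME-sEV 2, 1 (Cd27) without LME-sEV 3 and 3 without HCME-sEV 1. Over all genes the calls ran from 391 to 1305, beside 1131 with all libraries, with 168 to 544 higher and 223 to 761 lower, and 83 to 184 genes also passed a log2 fold change of 1. The count was lowest without LME-sEV 2 (391), 458 without LME-sEV 3 and 723 without HCME-sEV 2. Tnfrsf1b turned to a log2 fold change of -0.046 without LME-sEV 2, where the fits with a library left out ran from -0.046 to 0.26. Scaling by library totals alone turned the split of 473 higher and 658 lower into 614 and 465, and it called 3 members. The count of 2 genes called in the NF-kB list ran from 0 to 4 over the alternatives. Of the 16 genes past the threshold in the 7 related lists, 7 passed in every alternative, which for these genes was checked after seeing the data.

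With the replicate block 4 members passed, Cd28, Icos and Cd27 higher and 1, Tnfrsf9, lower (log2 fold change -0.28, edgeR FDR 0.0151), and 1454 genes passed in all. The correlations of same-numbered libraries were 0.072, 0.155 and 0.027, beside at most 0.080, -0.021 and 0.067 with another number. Only replicate 2 correlated best with its own number. With so few libraries this check cannot tell whether the numbers mark pairs. Depth limited Tnfrsf25 and Tnfrsf14, whereas Tnfrsf8 varied between HCME-sEV libraries by more than its counts allow (CV 55.6% against 17.7% from counting). Counts per tag do not show protein on the cell surface.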
